A study of Mus musculus with 10 samples.

Results

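The genes that encode heterogeneous nuclear ribonucleoproteins (hnRNPs) and SR proteins, the RNA-binding proteins that steer splicing, were read for peaks of N6-methyladenosine (m6A) and of the m6A reader YTHDC1 in mouse embryonic stem cells. The members were the protein-coding genes of the RefSeq gene table of GRCm38.p6 (coordinates of mm10) whose symbol starts with Hnrnp or is Srsf followed by a number. They came to 30 of 21887 protein-coding genes, with 19 hnRNP genes and 11 SR genes. A further 2 genes with such symbols were not used here. A peak was given to every gene whose span held the peak's midpoint, and 158 peaks of the 3 lists fell in the members. The choice by symbol used no measured value, but it was made with earlier results of these data known. The peak lists hold no level of expression, so the members' RNA levels are not known here.

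hnRNPs coat nascent RNA as it leaves RNA polymerase and often hold back the use of an exon, whereas SR proteins bind exonic enhancers through their RNA recognition motifs and recruit the splicing machinery through a domain rich in arginine and serine. Many genes of both families carry conserved exons that introduce a premature stop, through which the proteins lower their own mRNA. METTL3 is the catalytic subunit of the complex that methylates adenosine within mRNA, and YTHDC1 is the nuclear protein that reads the mark. In human cells YTHDC1 recruits SRSF3 and keeps SRSF10 off RNA, which links the reader to members of the SR family.

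All cells were male mouse embryonic stem cells derived from 129 mice, cultured without feeders in serum and LIF. The m6A samples were Mettl3-KO cells (2 precipitates and 2 inputs of poly(A) RNA) and Mettl3-WT cells (2 precipitates and 2 inputs of poly(A) RNA). The YTHDC1 samples came from Halo-Ythdc1 knockin cells, in which the tagged reader was pulled down from total RNA (1 precipitate and 1 input). How the Mettl3-KO cells were made, and whether the samples of a genotype came from separate cultures or clones, is not stated in the labels. The cell type label of the Mettl3-KO samples reads WT, and the title and source name were followed. The label of 1 of the 2 Mettl3-KO precipitates names the WT peak list as its file, while the other names the KO list. The RIP sample's labels name no file.

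Each assay and genotype had 1 list of peak positions, with 6764 peaks in the Mettl3-KO m6A list, 12368 in the Mettl3-WT m6A list and 30992 in the YTHDC1 RIP list. The lists hold no strand, score, depth or value per replicate. Spread between replicates is thus not measurable from these lists, the depth behind a peak is unknown, and no p-value is given. Shares carry exact Clopper-Pearson 95% intervals, which treat genes or peaks as independent and cover counting error only. A gene without a peak may be unmarked, lowly expressed or below the reach of the peak caller, and these cannot be told apart here. Of 5 embryonic stem cell markers (Pou5f1, Sox2, Nanog, Esrrb and Zfp42), 5 had a KO peak, 4 had a WT peak and 5 had a RIP peak. Of 3 fibroblast markers 1 had a KO peak and none had a WT or RIP peak, of 2 neural markers 1 had a WT peak (Sox1) and 1 had a RIP peak (Pax6), and of 3 endoderm markers none had a peak. The shares over all protein-coding genes, for comparison, are 18.2% in the KO list, 30.3% in the WT list and 42.2% in the RIP list.

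The starts of the genes are shown first, because the share of members with a KO peak there was above that of all protein-coding genes. A KO midpoint within 200 bp of a listed start was found in 39.3% of members, beside 12.5% of all protein-coding genes with one. Counted per peak and by either end of the span, the members did not stand higher. A midpoint within 200 bp of a span end was found for 8 of their 40 KO peaks, beside 29.9% in all protein-coding genes. Of the 28 members with a start in the RefSeq promoter table of GRCm38.p6, 11 had a KO peak with its midpoint within 200 bp of a listed start. The 4 of these 11 genes with the widest such peak were Hnrnph1, Hnrnpm, Srsf10 and Srsf5, each with a peak of 300 bp. Srsf3 and Srsf2, which had no KO peak, are set beside them and were chosen after their values were seen. Each line is the sense strand 5′ to 3′, with 60 bases before the start in lower case and the first 20 bases of the listed RNA in capitals. The windows are chr11:50378231-50378310 (plus strand, the listed start nearest the peak) for Hnrnph1, chr17:33685439-33685518 (minus) for Hnrnpm, chr4:135856011-135856090 (plus) for Srsf10 and chr12:80945439-80945518 (plus) for Srsf5. Those of the contrasting genes are chr17:29032600-29032679 (plus) for Srsf3 and chr11:116853075-116853154 (minus) for Srsf2.
Hnrnph1: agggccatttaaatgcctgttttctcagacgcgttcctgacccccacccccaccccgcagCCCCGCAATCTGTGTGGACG
Hnrnpm: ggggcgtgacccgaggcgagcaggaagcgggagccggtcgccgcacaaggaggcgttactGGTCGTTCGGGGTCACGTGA
Srsf10: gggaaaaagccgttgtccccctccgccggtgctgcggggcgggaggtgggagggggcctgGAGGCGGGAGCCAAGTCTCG
Srsf5: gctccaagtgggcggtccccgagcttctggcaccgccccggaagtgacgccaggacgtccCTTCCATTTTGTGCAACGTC
Srsf3: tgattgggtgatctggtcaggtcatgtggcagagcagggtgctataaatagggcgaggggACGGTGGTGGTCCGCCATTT
Srsf2: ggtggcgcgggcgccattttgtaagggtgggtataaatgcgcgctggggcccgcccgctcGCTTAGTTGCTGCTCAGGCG
The midpoint of the KO peak lay 59 bp after the start of Hnrnph1, 108 bp after that of Hnrnpm, 129 bp after that of Srsf10 and 101 bp after that of Srsf5. Their listed RNAs begin with C, G, G and C, so none of these 4 begins with A.

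Most hnRNP genes had a peak in each of the lists, and most SR genes had one in the KO and RIP lists. In the KO m6A list 16 of 19 hnRNP genes (84.2%, interval 60.4 to 96.6%) and 7 of 11 SR genes (63.6%, 30.8 to 89.1%) had a peak, beside 18.2% of all protein-coding genes. In the WT m6A list 13 of 19 hnRNP genes (68.4%, 43.4 to 87.4%) and 4 of 11 SR genes (36.4%, 10.9 to 69.2%) had one, beside 30.3% of all protein-coding genes. The YTHDC1 RIP list held a peak in 17 of 19 hnRNP genes (89.5%, 66.9 to 98.7%) and 9 of 11 SR genes (81.8%, 48.2 to 97.7%), beside 42.2% of all protein-coding genes. For the members together the shares were 76.7% in the KO list, 56.7% in the WT list and 86.7% in the RIP list. The KO list was thus the shorter m6A list, yet it held a peak in 23 members and the WT list in 17. The SR share in the WT list has an interval that spans the share of all protein-coding genes, and the intervals of hnRNP and SR genes overlap in every list.

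**Figure D1:**
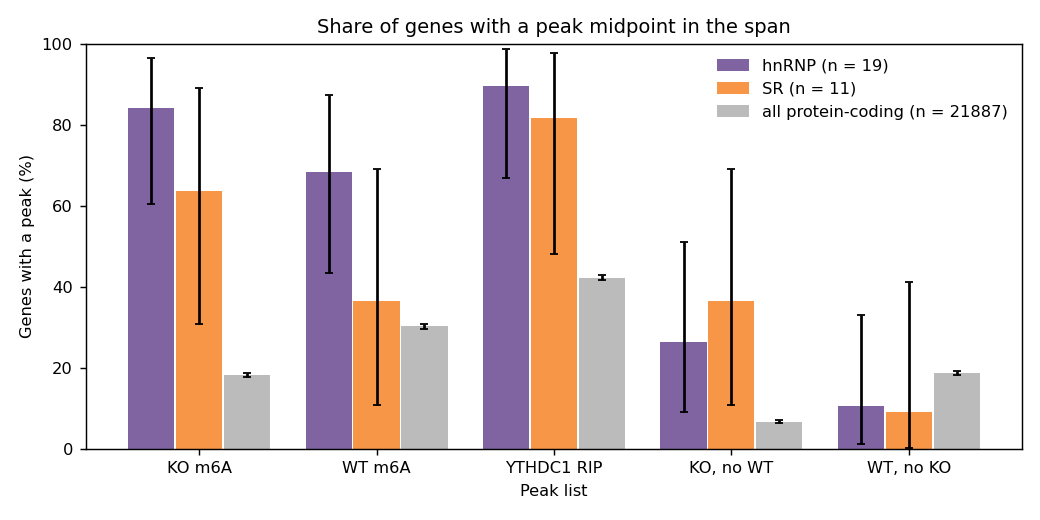
Percent of genes (y axis) with a peak midpoint in the span, for the KO m6A, WT m6A and YTHDC1 RIP lists and for genes with a peak in only one m6A list (x axis); bars are 19 hnRNP genes, 11 SR genes and 21887 protein-coding genes, with exact 95% Clopper-Pearson intervals. Both families stand above all protein-coding genes in the KO list (84.2% and 63.6%, beside 18.2%), and the SR interval in the WT list spans the 30.3% of all genes.

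Because a peak needs a transcript, the shares were also set beside those of genes that any of the lists marked. Of 11318 such protein-coding genes, 35.2% had a KO peak, 58.6% had a WT peak and 81.7% had a RIP peak. Against these, the members' 76.7% in the KO list stood higher. Their 56.7% in the WT list (interval 37.4 to 74.5%) and 86.7% in the RIP list (69.3 to 96.2%) have intervals that span the background. The members' shares still include Srsf12 and Hnrnpa1l2-ps2, which had no peak in any list. The denominators are thus unlike, and each of the members' shares would be somewhat higher without these genes. Spans differed: the median was 12212 bp for hnRNP genes, 7290 bp for SR genes and 17169 bp for all protein-coding genes. Among the 13898 protein-coding genes with a span in the members' range, 19.5% had a KO peak, 30.1% had a WT peak and 38.5% had a RIP peak.

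The genotypes divided the members unevenly. A KO peak and no WT peak was found in 9 of 30 members (30.0%, 14.7 to 49.4%), namely 5 of 19 hnRNP genes and 4 of 11 SR genes, beside 6.66% of all protein-coding genes. The reverse, a WT peak and no KO peak, was found in 3 of 30 members (10.0%, 2.11 to 26.5%), which were 2 of 19 hnRNP genes and 1 of 11 SR genes, beside 18.8% of all protein-coding genes. Peaks in both m6A lists were present in 11 of 19 hnRNP genes and 3 of 11 SR genes (46.7% of members, beside 11.5%). The interval for a WT peak and no KO peak spans the 18.8% of all protein-coding genes. Among protein-coding genes marked in any of the lists, 12.9% had a KO and no WT peak and 36.3% had the reverse. Peaks in both m6A lists were present in 22.3% of them. No difference in m6A level follows from these counts, since a peak list records only where a caller found enrichment.

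**Figure D2:**
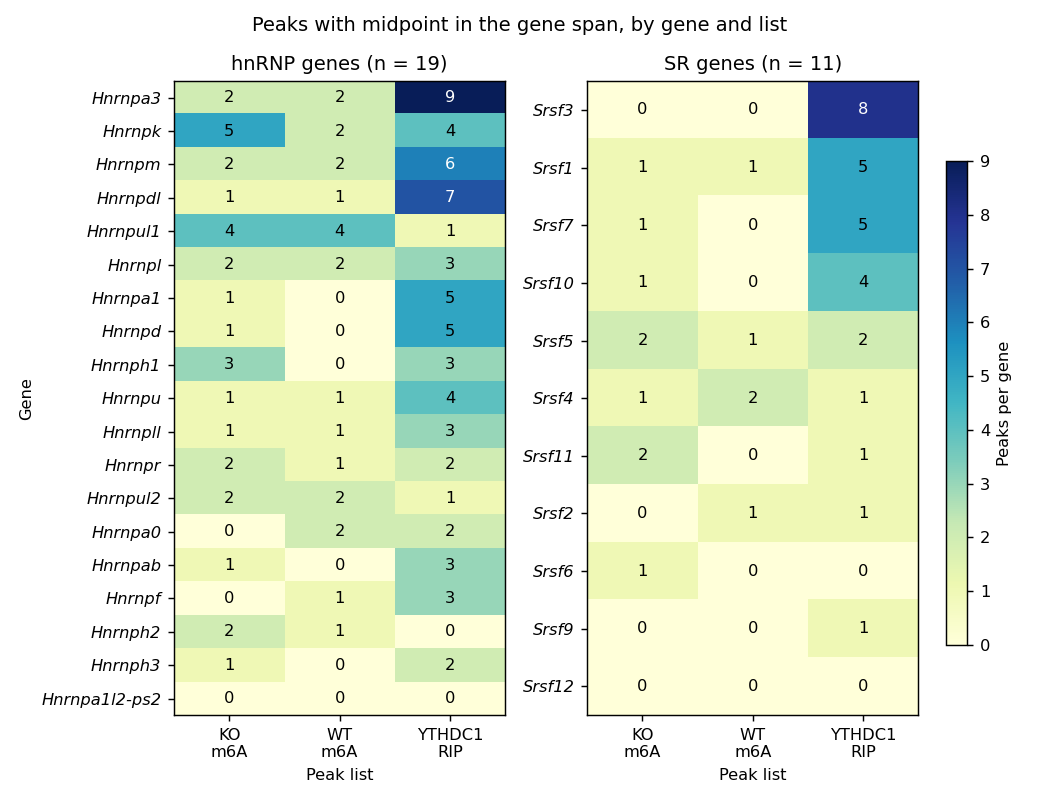
Number of peaks per gene (colour and digit) in the KO m6A, WT m6A and YTHDC1 RIP lists (columns) for the 19 hnRNP genes and the 11 SR genes (rows, ordered by their total). Hnrnpk holds most KO peaks (5), Hnrnpul1 most WT peaks (4) and Hnrnpa3 most RIP peaks (9), while Srsf3 holds 8 RIP peaks and no m6A peak.

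The KO-only hnRNP genes were Hnrnpa1, Hnrnpab, Hnrnpd, Hnrnph1 and Hnrnph3. Hnrnpa1, a splicing repressor and the classic partner against which SR proteins compete, had 1 KO peak (chr15:103240001-103240150, 150 bp), no WT peak and 5 RIP peaks, the widest at chr15:103244155-103244369. Hnrnpab had 1 KO peak (chr11:51606351-51606900, 550 bp), no WT peak and 3 RIP peaks, the widest at chr11:51604589-51604937. Hnrnpd, known as AUF1 and as a regulator of mRNA decay through AU-rich elements, had 1 KO peak (chr5:99978351-99979000, 650 bp), no WT peak and 5 RIP peaks, the widest at chr5:99963794-99964230 (437 bp). In Hnrnpa1, Hnrnpab and Hnrnpd the KO peak lay in the first few percent of the span. The RIP peaks of Hnrnpa1 and Hnrnpd lay further downstream, while 1 RIP peak of Hnrnpab (chr11:51606384-51606637) lay inside its KO peak.

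Hnrnph1 and Hnrnph3 belong to the H and F family, whose members bind runs of G. Hnrnph1 had 3 KO peaks, no WT peak and 3 RIP peaks. Its widest KO peak (chr11:50378201-50378500, 300 bp) covered 2 of its listed starts, and its widest RIP peak was at chr11:50382439-50382811 (373 bp). A further KO peak of Hnrnph1 at chr11:50382751-50383000 overlapped RIP peaks. Hnrnph3 had 1 KO peak (chr10:63023651-63023900), no WT peak and 2 RIP peaks, of which the widest (chr10:63023577-63023863) overlapped the KO peak at the start of the gene. The X-linked relative Hnrnph2 had 2 KO peaks, 1 WT peak and no RIP peak in the span, with a RIP peak just upstream at chrX:134600740-134600940. Hnrnpf stood on the other side, with no KO peak, 1 WT peak of 100 bp (chr6:117924701-117924800) and 3 RIP peaks, the widest at chr6:117924828-117925086.

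The KO-only SR genes were Srsf6, Srsf7, Srsf10 and Srsf11. Srsf6 had 1 KO peak at its start (chr2:162931451-162931700, 250 bp), no WT peak and no RIP peak in the span. Srsf7, an SR protein with a zinc knuckle that also serves as an adapter for mRNA export, had 1 KO peak (chr17:80207101-80207350), no WT peak and 5 RIP peaks, the widest at chr17:80205242-80205549 (308 bp). Srsf10, which acts as a repressor of splicing when dephosphorylated, had 1 KO peak (chr4:135856051-135856350), no WT peak and 4 RIP peaks, the widest at chr4:135858782-135859049. Srsf11 had 2 KO peaks near its 3′ end (the widest at chr3:158012101-158012350), no WT peak and 1 RIP peak (chr3:158027499-158027685). Srsf6, Srsf7 and Srsf10 thus had their KO peak at the start, and Srsf11 had its KO peaks at the opposite end.

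The WT-only genes were Hnrnpa0, Hnrnpf and Srsf2, and for Hnrnpa0 and Srsf2 the call rests on where a gene span ends or which span a peak belongs to. Hnrnpa0, an A/B family protein that binds AU-rich elements, had 2 WT peaks (the widest at chr13:58127001-58127500, 500 bp) and 2 RIP peaks (the widest at chr13:58127958-58128205), and a KO peak lay outside the span, 219 bp upstream of its start (chr13:58128651-58128900). Srsf2, known as SC35 and as a core marker of nuclear speckles, had no KO peak, 1 WT peak of 800 bp (chr11:116852901-116853700) and 1 RIP peak (chr11:116850676-116851086). That WT peak lies in the spans of both Srsf2 and Mfsd11, and with no strand in the list it cannot be assigned to either.

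The genes with most m6A peaks were hnRNP genes. Hnrnpk, a KH-domain protein that binds C-rich RNA, had 5 KO peaks, 2 WT peaks and 4 RIP peaks. Of all protein-coding genes 0.498% had at least 5 KO peaks. The widest KO peak (chr13:58402301-58402850, 550 bp) and the widest WT peak (chr13:58402301-58402550, 250 bp) of Hnrnpk begin at the same base and also lie in the span of Rmi1, while the widest RIP peak (chr13:58400189-58400542, 354 bp) overlapped another KO peak. Hnrnpul1, a SAP-domain relative of Hnrnpu, had 4 KO peaks, 4 WT peaks and 1 RIP peak (chr7:25752522-25752663), and 2.61% of all protein-coding genes had at least 4 WT peaks. Of its 4 KO peaks 3 overlapped a WT peak, including both of the widest (chr7:25722751-25723050 and chr7:25724451-25724750), while its widest WT peak (chr7:25754251-25754700, 450 bp) stood apart. Hnrnpul2 had 2 KO peaks (the widest at chr19:8820301-8820900, 600 bp), 2 WT peaks (the widest at chr19:8819601-8820000) and 1 RIP peak (chr19:8833253-8833452).

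Further hnRNP genes carried peaks of both genotypes. Hnrnpl, which binds CA repeats, had 2 KO peaks (chr7:28810851-28811050 and chr7:28816351-28816550), 2 WT peaks (the widest at chr7:28815751-28816450, 700 bp) and 3 RIP peaks (the widest at chr7:28817513-28817764). Hnrnpm had 2 KO peaks (the widest at chr17:33685201-33685500), 2 WT peaks (the widest at chr17:33649901-33650250, 350 bp) and 6 RIP peaks (the widest at chr17:33677304-33677561). At the start of Hnrnpm, peaks of all 3 lists overlapped. Hnrnpdl, a relative of Hnrnpd, had 1 KO peak (chr5:100039651-100039950), 1 WT peak (chr5:100039051-100039900, 850 bp, the widest m6A peak among the members) and 7 RIP peaks (the widest at chr5:100036081-100036384). Both m6A peaks of Hnrnpdl also lie in the span of Enoph1, so neither can be assigned. The remaining genes with both were Hnrnpr (2 KO, 1 WT and 2 RIP peaks), Hnrnpu (1 KO, 1 WT and 4 RIP peaks), which is known as a scaffold attachment factor, and Hnrnpll (1 KO, 1 WT and 3 RIP peaks), the relative of Hnrnpl known from exon skipping of Ptprc in lymphocytes.

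Peaks in both m6A lists were found in 3 SR genes. Srsf1, the founding member of the family, had 1 KO peak (chr11:88047601-88048050, 450 bp), 1 WT peak inside it (chr11:88047651-88047900) and 5 RIP peaks (the widest at chr11:88048918-88049243). Srsf4 had 1 KO peak of 800 bp (chr4:131900001-131900800), 2 WT peaks (the widest at chr4:131900951-131901650, 700 bp) and 1 RIP peak (chr4:131900525-131900743), all near its 3′ end and all within the span of an overlapping non-coding gene. Srsf5 had 2 KO peaks (the widest at chr12:80945451-80945750), 1 WT peak (chr12:80949751-80950150, 400 bp) and 2 RIP peaks of 220 bp each. Its KO peaks lay in the 5′ part of the gene and its WT peak in the 3′ part.

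Srsf3 showed RIP peaks without m6A peaks. Srsf3, a small SR protein that acts in splicing, export and polyadenylation, had 8 RIP peaks in a span of 10713 bp (the widest at chr17:29041782-29042020, 239 bp) and no peak in the KO or the WT list. At least 8 RIP peaks were present in 1.06% of all protein-coding genes. A RIP peak without any m6A peak was found in 2 of 11 SR genes (Srsf3 and Srsf9) and in 0 of 19 hnRNP genes, which allows a share of up to 17.6% by the exact interval, beside 14.8% of all protein-coding genes. Srsf9 had 1 RIP peak in its span. A WT peak lay 532 bp past the 3′ end of Srsf9, inside Gatc. Srsf12, a close relative of Srsf10, and Hnrnpa1l2-ps2, listed as protein-coding under the name of a retrocopy, had no peak in any list.

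The RIP list marked the other members broadly. Hnrnpa3, of the A/B family, had 9 RIP peaks (the widest at chr2:75665393-75665763, 371 bp) along with 2 KO peaks (the widest at chr2:75662601-75663000, 400 bp) and 2 WT peaks (the widest at chr2:75667451-75667700). At least 9 RIP peaks were present in 0.626% of all protein-coding genes. Summed over the family, RIP peaks came to 2.03 per 10 kb of span in hnRNP genes and 2.02 in SR genes, beside 0.213 in all protein-coding genes and 0.562 in those of the members' span range. KO peaks came to 1.00 per 10 kb in hnRNP genes and 0.648 in SR genes, beside 0.0627 in all protein-coding genes and 0.217 in those of the members' span range. WT peaks came to 0.711 per 10 kb in hnRNP genes and 0.36 in SR genes, beside 0.114 in all protein-coding genes and 0.349 in those of the members' span range. The SR density in the WT list was thus near that of genes in the members' span range, which is the range of both families and wider than that of SR genes. It rests on 5 peaks, and those of Srsf2 and Srsf4 also lie in another gene's span. Per length, hnRNP and SR genes were thus close in RIP peaks, and hnRNP genes held more m6A peaks of either genotype.

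Positions along the gene differed between the lists, with each span divided into 3 equal parts. For members with a known strand, 24 of 37 KO peaks (64.9%) lay in the 5′ part of the span and 9 (24.3%) in the 3′ part, close to the 58.6% and 24.7% of all protein-coding genes. Of 24 WT peaks, 10 (41.7%) lay in the 5′ part and 9 (37.5%) in the 3′ part, whereas WT peaks of all protein-coding genes lay there in 16.8% and 68.4%. Most of these 10 overlapped a KO peak: those of Srsf1, Hnrnpdl, Hnrnpk, Hnrnpm and Hnrnpu, and chr7:25750851-25751050 in Hnrnpul1. The others, in Srsf2, Hnrnpa0 and Hnrnpul1, did not. Those of Srsf2 and Hnrnpdl, and chr13:58402301-58402550 in Hnrnpk, also lie in another gene's span. The 5′ share is thus not one of sites particular to the WT list. The median WT position was 51.9% of the span in members and 86.1% in all protein-coding genes. RIP peaks of the members lay in the 5′ part in 46.0%, the middle part in 37.9% and the 3′ part in 16.1% of 87 cases, beside 39.0%, 26.5% and 34.5% in all protein-coding genes. By family, the median WT position was 48.8% for 19 peaks in hnRNP genes and 88.9% for 5 peaks in SR genes. The 5′ part held 8 of the 19 hnRNP peaks (42.1%) and 2 of the 5 SR peaks (40.0%), and the 3′ part held 6 and 3. The share of WT peaks in the 5′ part was thus alike in both families, as a description of few peaks, and the SR median rests on 5 peaks. Exons, introns and UTRs were not analysed here, so these positions are along the unspliced gene.

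**Figure D3:**
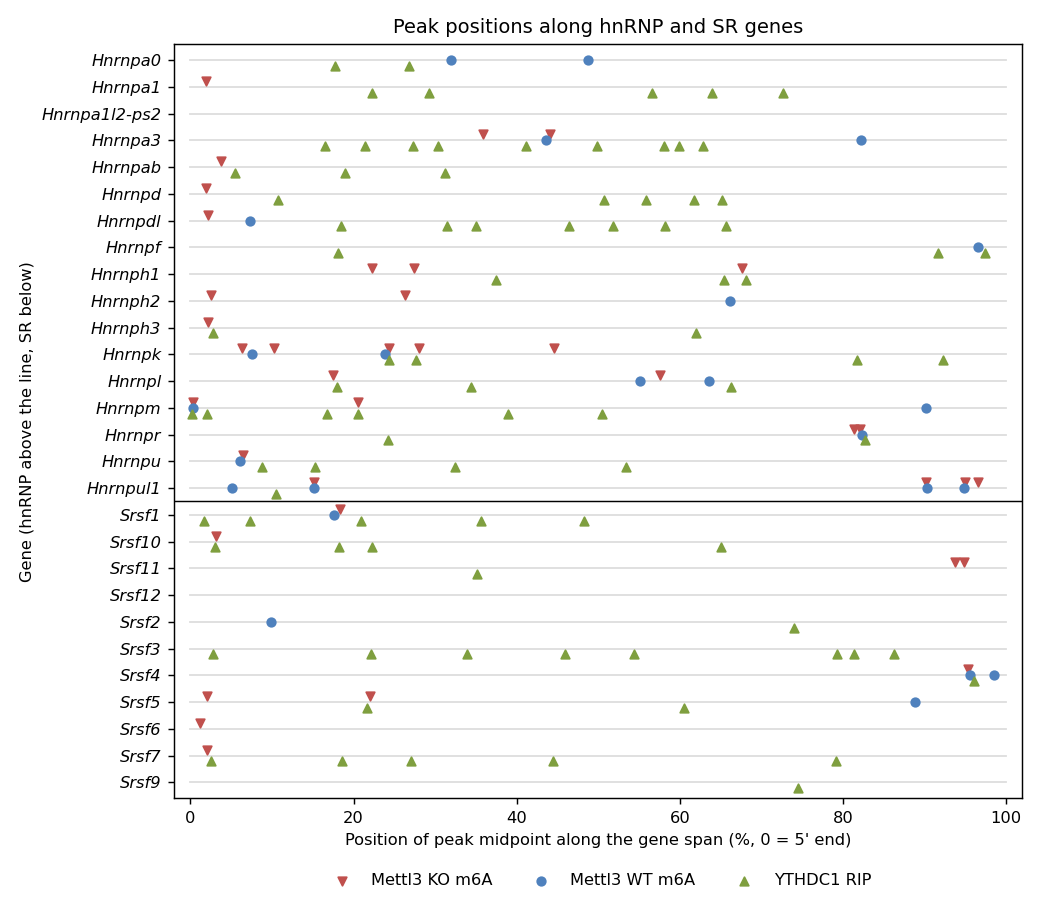
Position of each peak midpoint along the gene span (x axis, percent from the 5′ end) for the 28 members of known strand (y axis), with symbols for KO m6A, WT m6A and YTHDC1 RIP peaks. KO symbols crowd at the left edge in genes such as Hnrnpd, Hnrnph3, Srsf7 and Srsf10, and RIP symbols spread along Hnrnpa3 and Srsf3.

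**Figure D4:**
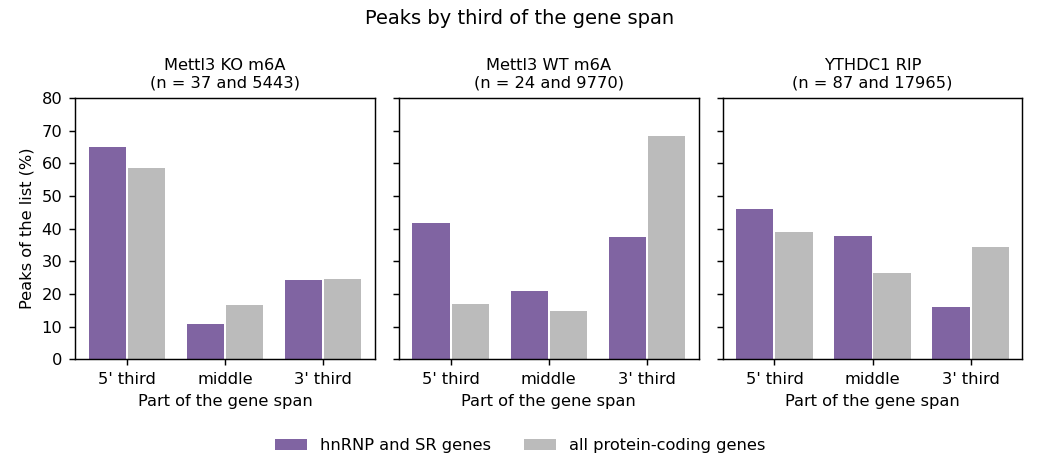
Percent of the peaks of each list (y axis) in the 5′, middle and 3′ of 3 equal parts of the gene span (x axis), for hnRNP and SR genes and for all protein-coding genes. In the WT list the members' bars are 41.7% in the 5′ part and 37.5% in the 3′ part, against 16.8% and 68.4% for all protein-coding genes. Most of the members' WT peaks in the 5′ part overlapped a KO peak.

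At listed starts, KO peaks were the most frequent of the 3 kinds. A KO midpoint within 200 bp of a listed start was present in 7 of 17 hnRNP genes and 4 of 11 SR genes, together 39.3% (21.5 to 59.4%), beside 12.5% of all protein-coding genes with a listed start. The hnRNP genes were Hnrnph1, Hnrnph2, Hnrnph3, Hnrnpk, Hnrnpl, Hnrnpm and Hnrnpu, and the SR genes were Srsf5, Srsf6, Srsf7 and Srsf10. A WT midpoint was there in 2 of 28 members (Hnrnpm and Hnrnpu, 7.14%), beside 2.75% of all protein-coding genes. A RIP midpoint was there in 5 of 28 members (Hnrnph3, Hnrnpl, Hnrnpm, Srsf7 and Srsf10, 17.9%), beside 7.83% of all protein-coding genes. All 5 of these genes had a KO peak there as well. Within 500 bp, a distance chosen after the data were seen, the counts were 16 members in the KO list (beside 14.8% of all protein-coding genes), 7 in the WT list (beside 4.52%) and 14 in the RIP list (beside 15.1%). Counted per peak and by either end of the span, the members did not stand above all protein-coding genes. A midpoint within 200 bp of a span end was found for 8 of their 40 KO peaks (interval 9.05 to 35.6%), beside 29.9% of KO peaks in all protein-coding genes. The same held for 1 of 27 WT peaks (3.7%, beside 4.73%) and 3 of 91 RIP peaks (3.3%, beside 6.09%). The share of genes with a KO peak at a start was thus higher in the members, and the share of their KO peaks at a span end was not. The 2 measures are unlike, because listed starts can lie inside the span. The KO peaks at listed starts of Hnrnph1, Hnrnpk, Hnrnpl and Hnrnpu lay 1141 to 3093 bp from the nearest span end. They count for the first measure only, and the interval of the second spans the 29.9%.

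**Figure D5:**
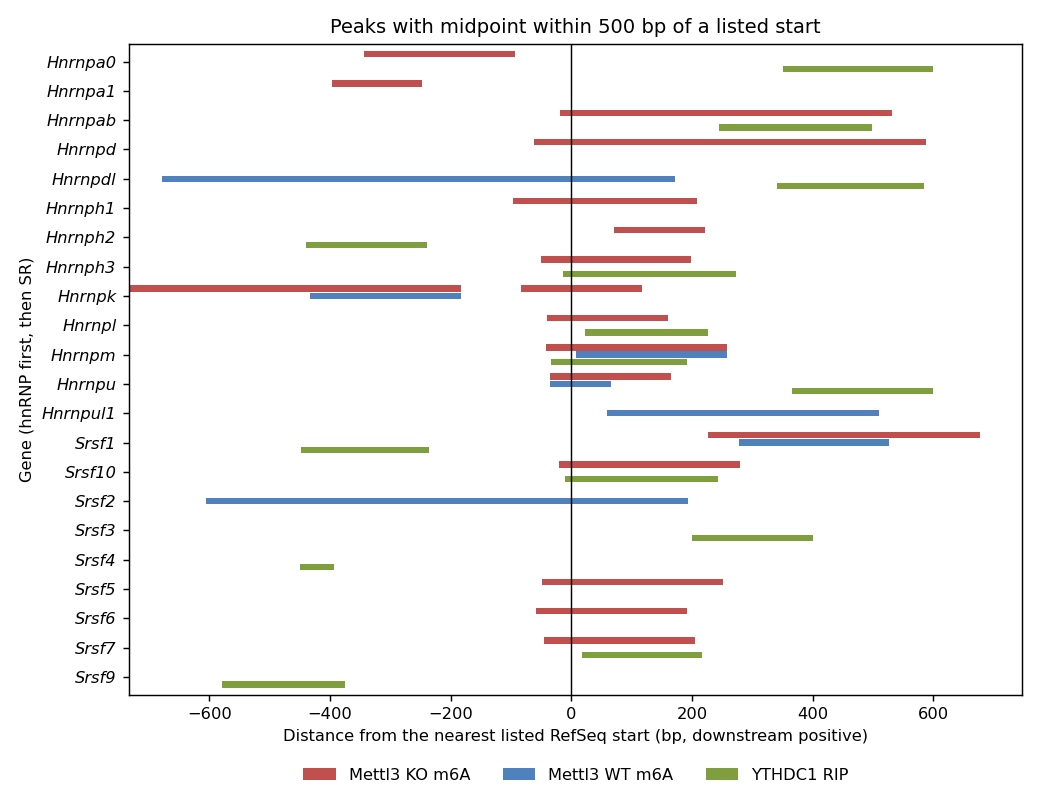
Peaks with a midpoint within 500 bp of a listed RefSeq start, drawn to scale from their start to their end (x axis, distance from the nearest listed start in bp, downstream positive) for each member that has one (y axis), in colours for KO m6A, WT m6A and YTHDC1 RIP. KO bars cross or touch the start in Hnrnph1, Hnrnpm, Srsf5 and Srsf10, and in Hnrnpm bars of all 3 lists overlap.

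The letters at these starts were compared, because antibodies to m6A also bind m6Am, a base found next to the cap of mRNAs that begin with A. Of the members' 14 listed starts with a KO midpoint within 200 bp, 3 begin with A, 4 with C, 7 with G and 0 with T. These starts belong to 11 genes, because several of them, with C or G first, are starts of Hnrnph1, so they are not independent. Over all protein-coding genes, A was the first base at 31.1% of 2366 starts with such a KO peak and at 38.1% of 18897 starts without one. GGAC, the core of the preferred m6A motif, occurred on the sense strand in the first 50 bases at 3 of the 14 starts (21.4%), beside 21.0% of all protein-coding starts with such a KO peak and 19.8% of those without one. Its reverse complement GTCC occurred at 1 of the 14 (7.14%), beside 18.6% and 18.8%, and the motifs do not overlap each other. These are matches of letters, listed starts may differ from those used in these cells, and what lies behind the KO peaks at starts was not tested.

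Overlap between lists was read peak by peak, with at least 1 bp in common. Of the members' 40 KO peaks 14 overlapped a WT peak (35.0%, 20.6 to 51.7%), and of their 27 WT peaks 14 overlapped a KO peak (51.9%, 31.9 to 71.3%). Over all protein-coding genes 21.3% of KO peaks overlapped a WT peak and 11.7% of WT peaks overlapped a KO peak. Of the KO peaks, 14 of 40 overlapped a RIP peak (35.0%, 20.6 to 51.7%, beside 21.6%), 9 of 31 in hnRNP genes and 5 of 9 in SR genes. The intervals of both shares of KO peaks span their backgrounds of 21.3% and 21.6%. Of the WT peaks, 6 of 27 overlapped a RIP peak (22.2%, 8.62 to 42.3%, beside 13.1%). From the side of the RIP list, 15 of 91 peaks overlapped a KO peak (16.5%, beside 6.44%) and 6 of 91 overlapped a WT peak (6.59%, beside 7.32%). Most RIP peaks of the members thus lay outside the m6A peaks of either genotype.

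Sites shared by all 3 lists were few and each lay in another gene. A KO peak overlapped both a WT and a RIP peak once in each of Hnrnpk, Hnrnpm, Hnrnpr, Srsf1 and Srsf4. KO peaks that overlapped a RIP peak and no WT peak numbered 9, in Hnrnpab, Hnrnph1, Hnrnph3, Hnrnpk, Hnrnpl, Hnrnpm, Srsf5, Srsf7 and Srsf10. KO peaks that overlapped a WT peak and no RIP peak also numbered 9, with 3 in Hnrnpul1 and 1 each in Hnrnpa3, Hnrnpdl, Hnrnpk, Hnrnpl, Hnrnpu and Hnrnpul2. All of these are hnRNP genes, which held 31 of the 40 KO peaks, while SR genes held 9. WT peaks overlapped a RIP peak without a KO peak only in Hnrnpa0 and Hnrnpl. The other 17 KO peaks and 11 WT peaks overlapped no peak of another list. Counts of such sites over all protein-coding genes are not given here, so these numbers describe the members alone.

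Peak widths were compared within each list. The median KO peak was 250 bp wide in hnRNP genes, SR genes and all protein-coding genes alike. The median WT peak was 250 bp in hnRNP genes and 550 bp in SR genes (5 peaks), beside 400 bp in all protein-coding genes. None of the members' 27 WT peaks reached 1 kb. Such peaks were also a minority over all protein-coding genes (1142 of 11590 WT peaks), and 27 peaks are too few to tell a lower share. RIP peaks had a median of 219 bp in hnRNP genes and 216 bp in SR genes, beside 200 bp in all protein-coding genes.

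Other genes of the splicing machinery, from lists that are not independent of earlier results, were counted in the same way. Of 12 hnRNP proteins under other names, 6 had a KO peak, 5 had a WT peak and 10 had a RIP peak (3 KO-only and 2 WT-only), with Syncrip, the relative of Hnrnpr, at 1 KO, 2 WT and 8 RIP peaks and Tardbp at 1, 1 and 6. Of 19 SR-related proteins, 18 had a KO peak, 11 had a WT peak and 18 had a RIP peak, and 8 had a KO peak without a WT peak while 1 had the reverse. Among them Acin1, with most peaks, had 11 KO, 3 WT and 4 RIP peaks. Luc7l2, which associates with the U1 particle, had 3 KO, 0 WT and 13 RIP peaks, and Rbm39, a relative of the U2AF large subunit, had 3, 0 and 11. Of 10 genes for SR kinases and the import of SR proteins, 7 had a KO peak, 6 had a WT peak and 8 had a RIP peak (2 KO-only and 1 WT-only), with Srpk2 at 2 KO, 3 WT and 5 RIP peaks. Of 30 core spliceosome genes, 22 had a KO peak, 11 had a WT peak and 24 had a RIP peak, with 12 KO-only and 1 WT-only, and Prpf31 stood at 2 KO, 4 WT and 6 RIP peaks. KO-only genes thus outnumbered WT-only genes in the SR-related and core spliceosome lists, and by a single gene in each of the other lists, while over all protein-coding genes 6.66% were KO-only and 18.8% WT-only.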

How the data were processed

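The authors deposited 3 peak lists whose 3 columns give a peak's chromosome, start and end on mm10, so every value is another kind of measure than a count or signal: a position in bp, with no score. Per the submitters' processing notes the tools included bcl2fastq, Trim Galore 0.6.4, STAR 2.7, HISAT2 2.2.0, SAMtools 1.9 and MACS2 2.1.2. Their roles, the peak threshold and any pooling of replicates are not given there. Per the labels' protocols the RIP used Halo-tag beads and a denaturing wash without fragmentation. The m6A samples carry the same text, so the m6A step is not described.

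Gene spans, listed starts, strand and sequences came from RefSeq tables of GRCm38.p6. Of the 30 members 28 had a listed start, 39 starts in all. Hnrnpll and Hnrnpul2 had none and are left out of positions by strand. A midpoint in several spans counted for each of them, which applied to 9 of the members' peaks. Counts were made with Python 3.11.15, pandas 2.3.3, NumPy 2.4.6 and SciPy 1.17.1 and were tested on simulated peaks with known answers. The members and gene lists were chosen with earlier results of these data known, so the comparisons are descriptions and no test was run. Named in full were, in each family, the 4 members with most KO, WT and RIP peaks and every member with a peak in exactly 1 m6A list. From each other list, genes were taken from the 4 with most peaks. Distance to a listed start was a measure chosen after the data were seen. Protein sequences, exons and motifs under the peaks were not analysed here.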

Additional observations from a re-analysis of the deposited data

How the results depend on the processing

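Of 69 recomputed values 51 stayed within 1.5 times the reported one. With peaks wider than their list's median alone, hnRNP genes with a peak numbered 9 in the KO list and 6 in the WT list, SR genes 4 in the KO list and 2 in the WT list, and hnRNP genes with a WT and no KO peak 4. With spans widened by 1 kb, genes with a WT and no KO peak numbered 1 hnRNP and 2 SR genes. Leaving out midpoints in several spans left 2 SR genes with a WT peak, and leaving out Srsf4, with most WT peaks, left 3 SR WT peaks. The median SR gene had 0 WT peaks per 10 kb, while the sum over genes gave 0.36. Near a span end, the midpoint within 500 bp gave 5 of 27 WT peaks (18.5%, beside 16.1% in all protein-coding genes) and 9 of 91 RIP peaks (9.89%, beside 14.4%), and the nearest edge within 200 bp gave 5 WT peaks (beside 14.5%). Near a listed start, 500 bp (chosen after the data were seen) gave 7 members with a WT peak and 14 with a RIP peak. Genes marked in any of the lists gave backgrounds of 35.2% in the KO list, 58.6% in the WT list and 81.7% in the RIP list. No paired analysis was possible because each genotype has 1 list without values per replicate, so no replicate could be left out either. Depth is unknown, and it limits which peaks could be called.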
